A study of Mus musculus with 15 samples.

Results

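The 10 genes described here serve the entry, reduction, storage and sensing of iron in mouse melanoma cells: Tfrc, Slc11a2, Steap1, Steap2, Steap3, Fth1, Ftl1, Ncoa4, Ireb2 and Aco1. They were taken by symbol from the deposited count tables, all 10 were listed in all 5 groups of libraries, and they are 10 of the 12721 genes tested. The cells were B16.F10, an established mouse melanoma line, grown throughout in 1% oxygen, so that every group carried the same hypoxia and none had normal oxygen. Untreated control cells received neither siRNA nor drug. Lipoplexes, which are lipid particles that carry RNA into cells, delivered either a negative control siRNA or an siRNA against Hif1a at 25 nM. Doxorubicin, an anthracycline that poisons topoisomerase and damages DNA, was given at 0.25 µM for 24 h, alone or, in the combination, from 24 h after transfection with the Hif1a siRNA. How long the cells given siRNA alone were kept is not stated separately from this schedule. Each of these 5 groups had 3 libraries that the labels call biological replicates without saying whether they were separate cultures, so the p-values measure only the spread between these libraries. No group had the negative control siRNA together with doxorubicin, and in comparisons of the combination with doxorubicin alone the lipoplex and the Hif1a siRNA cannot be told apart.

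Cells take up iron bound to transferrin through the transferrin receptor (Tfrc), free it in the endosome, reduce it with a STEAP ferrireductase and move it to the cytosol through the divalent metal transporter (Slc11a2). Spare iron is held in ferritin, a shell built of a heavy subunit (Fth1) that oxidises iron and a light subunit (Ftl1) that helps its mineral core form, and Ncoa4 carries ferritin to the lysosome when iron is to be released. Control of these genes is known at both the message and the promoter: iron regulatory proteins (Aco1 and Ireb2) bind hairpins in the messages, blocking translation of ferritin and stabilising the Tfrc message, while the hypoxia factor HIF-1 acts on the Tfrc promoter.

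The hairpins of the 3 messages that dominate the iron signal are shown first, because read counts report the amount of a message and say nothing of its translation. A search of GENCODE M21 transcripts (GRCm38) for an unpaired C, a stem of 5 pairs (Watson-Crick or G with T) and the loop CAGTGN found a match in the untranslated regions of 3 of the 10 genes and of 160 of 21877 coding genes (0.731%). The loop is in capitals in each 27-base stretch. Fth1 and Ftl1 hold 1 hairpin each ahead of the coding sequence, in the 5′ untranslated region, at chr19:9982733-9982759 (plus strand) and chr7:45459780-45459806 (minus strand).
Fth1: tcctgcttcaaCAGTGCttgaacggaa
Ftl1: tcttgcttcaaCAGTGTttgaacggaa
Tfrc holds 4, in the 3′ untranslated region on the plus strand of chromosome 16, the first at chr16:32631220-32631246 and the last at chr16:32631711-32631737. No other coding gene had 4 matches.
Tfrc hairpin 1: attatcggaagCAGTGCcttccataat
Tfrc hairpin 2: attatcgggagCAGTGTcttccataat
Tfrc hairpin 3: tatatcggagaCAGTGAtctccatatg
Tfrc hairpin 4: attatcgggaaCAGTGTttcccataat
Hairpins 2 and 3 lie at chr16:32631599-32631625 and chr16:32631664-32631690. This pattern was not found in the untranslated regions of the other 7 genes. It allows no unpaired base within the 5 pairs and no other loop. Hairpins of another shape would be missed, so no match does not mean that a gene has no such hairpin.

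The HIF-binding core ACGTG, or its variant GCGTG, was searched on both strands of the 250 bases before each RefSeq start site (GRCm38.p6), where matches on opposite strands may overlap. At least 1 of these cores was found for 6 of the 9 genes with a promoter entry, in 9 of their 18 windows, beside 38.6% of all 32851 promoter windows. ACGTG itself was found for Tfrc, Steap2 and Ncoa4. It was in 16.6% of all windows, a share that counts windows and not genes. Each of these genes has more than 1 window, so the number of genes cannot be set against that share. The Tfrc match, shown in capitals because Tfrc is the gene of this set that fell most with the Hif1a siRNA, lies at chr16:32608882-32608911 on the plus strand, across the annotated start of the gene at base 32608896.
Tfrc start: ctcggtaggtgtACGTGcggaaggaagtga
A match of letters is a description of the sequence and not a measured binding site. Of the other genes with ACGTG, Steap2 rose with the Hif1a siRNA against the negative control siRNA (log2 0.37, edgeR adjusted p = 0.00098). Ncoa4 did not pass that test (-0.04, edgeR adjusted p = 0.66). Whether a match goes with a change of level was not tested.

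Libraries held 23825110 to 28734303 counted reads, and levels are given as CPM, the reads of a gene as a share of its library after TMM scaling, which evens out differences in library makeup. The targeted gene, Hif1a, stood at 274 ± 13.5 CPM with the negative control siRNA and 17.2 ± 1.57 with the Hif1a siRNA (SD, n = 3 each), and at 142 ± 8.91 with doxorubicin against 13.1 ± 1.35 with the combination. Untreated cells held 217 ± 13.2 CPM of it. Doxorubicin alone was thus lower than untreated cells (log2 -0.61, SE 0.08, edgeR adjusted p = 1.5e-07). The negative control siRNA was higher than untreated cells (log2 0.335, SE 0.08, edgeR adjusted p = 0.00059). Of the 10 melanocyte markers, 9 were listed, Ednrb being the exception, and no leukocyte, endothelial or epithelial marker was. The melanocyte markers summed to 22270 to 26280 CPM in untreated cells, 11940 to 12780 and 14010 to 14380 with the negative control and Hif1a siRNAs, 49680 to 57060 with doxorubicin and 36560 to 44910 with the combination. Of the 5 fibroblast markers only Col1a1 and Pdgfra were listed, at 2.49 to 6.62 summed CPM without the drug and 37.2 to 85.8 with it. Mitochondrial transcripts took 1.38% to 2.12% of reads without doxorubicin and 3.38% to 5.08% with it. The melanocyte sum is carried by abundant pigment genes such as Tyrp1, Dct and Pmel. With doxorubicin 6 of the 9 listed markers rose and 2 fell, and Sox10 went from 199.9 to 28.5 CPM and Tyr from 78.1 to 57.9. The share of reads in pseudogene rows was 4.50% to 5.09% in untreated cells, 3.06% to 3.32% with the negative control siRNA, 1.63% to 1.70% with the Hif1a siRNA, 2.37% to 2.48% with doxorubicin and 1.94% to 1.98% with the combination, so that it separated all 5 groups. These values moved with both the siRNA lipoplexes and the drug, beside every result below, and their part in those results was not tested.

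Levels also depend on the scaling. The TMM factors were 0.858 to 0.883 in untreated libraries and 1.17 to 1.19 with the Hif1a siRNA. Dividing by library totals alone, a setting chosen after seeing the data, moves all genes alike, by a median of 0.44 (log2) for the Hif1a siRNA against untreated cells, 0.23 for the negative control siRNA against untreated cells and 0.21 for the Hif1a siRNA against the negative control. The shift was 0.07 for doxorubicin, -0.20 for doxorubicin after the Hif1a siRNA, 0.17 for the combination against doxorubicin, 0.25 for it against untreated cells and -0.27 for the difference of drug effects. Of the 62 member calls 52 kept direction and call with totals alone, 7 were lost and 3 changed sign without being called. Those 10 are named beside the results they touch.

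Levels of different genes can be set side by side only per length. In untreated cells the light ferritin message stood at 16445 CPM per kilobase of transcript and the heavy at 1941, followed by Tfrc at 212. Ncoa4 had 24.5, Ireb2 17.2 and Slc11a2 15.8 CPM per kilobase. Aco1, at 7.30, and the reductases Steap3 at 3.66, Steap2 at 3.29 and Steap1 at 3.23 were the least abundant. Per length the set thus spans very abundant ferritin and scarce reductases. Against their own lowest group, the group means of Steap1 ranged 12.9-fold, of Fth1 4.48-fold and of Steap2 3.56-fold, while those of Aco1 and Ftl1 ranged 1.62-fold and 1.58-fold.

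**Figure D1:**
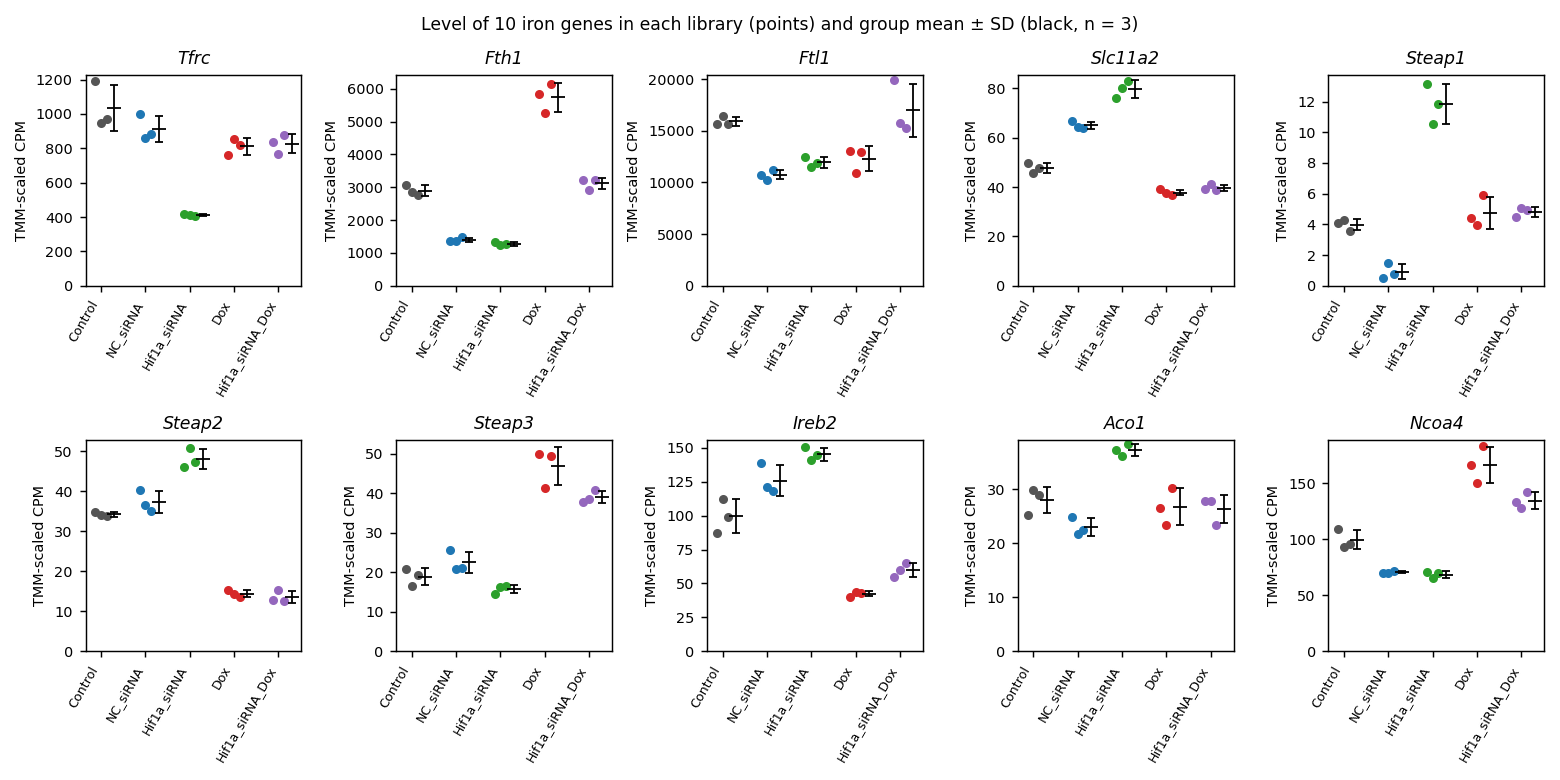
TMM-scaled CPM of each of the 10 iron genes (vertical axes, each starting at 0) in the 15 libraries, arranged by group; coloured points are libraries and black marks are the group mean ± SD (n = 3). Tfrc sits lowest in the 3 Hif1a siRNA libraries (409 to 417 CPM), Fth1 and Ncoa4 highest in the 3 doxorubicin libraries, and Steap1 highest in the 3 Hif1a siRNA libraries (10.5 to 13.1 CPM).

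Tfrc, the receptor that brings transferrin-bound iron into the cell (gene ID 22042, chr16:32608896-32632794, plus strand), fell with the Hif1a siRNA, and doxorubicin then lifted it in these siRNA-treated cells. Its level was 1001, 857 and 882 CPM in the 3 negative control siRNA libraries and 416, 409.8 and 409 in the Hif1a siRNA libraries, which lay well below and close together. The log2 fold change was -1.15 ± 0.08 (SE; edgeR adjusted p = 1.2e-11). Untreated libraries held 1189.9, 949 and 971 CPM and the doxorubicin libraries 759.6, 855 and 820.2, a fall of -0.35 ± 0.08 with groups that do not overlap (edgeR adjusted p = 0.00028). With the combination Tfrc stood at 835, 768 and 875 CPM, overlapping doxorubicin alone. The difference between those 2 groups was 0.03 on the log2 scale (95% interval -0.15 to 0.20, edgeR adjusted p = 0.82), and with library totals alone 0.20 (edgeR adjusted p = 0.028). Against the Hif1a siRNA alone, the combination was higher by a log2 value of 1.00 ± 0.08 (edgeR adjusted p = 4e-11). The drug moved Tfrc down without the siRNA and up with it, and the difference between these effects was 1.36 ± 0.11 (log2; edgeR adjusted p = 7.9e-10). Untreated replicate 1 was the highest library of all. Without it the doxorubicin fall was -0.24 (edgeR adjusted p = 0.0043) and the combination against untreated cells moved from -0.33 to -0.22 (edgeR adjusted p = 0.00934). With library totals alone that last value was -0.08 (edgeR adjusted p = 0.303). A small fall with the negative control siRNA, -0.18 against untreated cells (edgeR adjusted p = 0.047), lost its call without that library (-0.07, edgeR adjusted p = 0.412) and turned to 0.05 with library totals alone (edgeR adjusted p = 0.57). It lost it too without negative control siRNA replicate 2 (-0.13) or 3 (-0.16), without any 1 Hif1a siRNA library (-0.17 each) and, its value unmoved, without doxorubicin replicate 1 or 3 or combination replicate 1. The same call was lost with size factors of DESeq2 in edgeR (-0.17, edgeR adjusted p = 0.0589) or DESeq2 itself (-0.17, DESeq2 adjusted p = 0.0677). With only the compared groups the fall was -0.17 (edgeR adjusted p = 0.122). Since CPM are shares of a library, less of a message per cell and fewer cells that carry it cannot be told apart here.

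Slc11a2, the transporter that moves ferrous iron across the endosomal membrane (gene ID 18174, chr15:100387898-100424209, minus strand), was highest where Tfrc was lowest. Its 3 libraries were at 49.7, 45.8 and 47.6 CPM in untreated cells, at 66.6, 64.5 and 63.9 with the negative control siRNA, and at 75.9, 80.02 and 83.03 with the Hif1a siRNA. These 3 groups rose stepwise without overlap. Negative control siRNA exceeded untreated cells by a log2 value of 0.45 ± 0.07 (edgeR adjusted p = 8.6e-06), and the Hif1a siRNA exceeded the negative control by 0.29 ± 0.07 (edgeR adjusted p = 0.0007). With doxorubicin the level was 39.01, 37.5 and 36.8 CPM and with the combination 39.05, 41.2 and 38.8, both below every library without the drug and overlapping each other. Doxorubicin lowered it by a log2 value of -0.34 ± 0.07 in cells without siRNA (edgeR adjusted p = 0.00017) and 2.01-fold in cells with the Hif1a siRNA (SE 0.07 on the log2 scale, edgeR adjusted p = 4e-12). These effects differed by -0.67 ± 0.10 (edgeR adjusted p = 6.2e-06). The combination against untreated cells was lower by a log2 value of -0.27 ± 0.07 (edgeR adjusted p = 0.0017), and with library totals alone it was -0.02 (edgeR adjusted p = 0.838).

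The STEAP reductases, which reduce ferric iron and copper at membranes, moved in 3 different ways. Steap1 (gene ID 70358, chr5:5736322-5749317, minus strand), a family member without the NADPH-binding domain of the others, had the widest range of the set. Untreated libraries held 4.06, 4.28 and 3.59 CPM, the negative control siRNA libraries 0.504, 1.47 and 0.781, and the Hif1a siRNA libraries 13.1, 10.5 and 11.8. The negative control libraries were the lowest of all 15 and the Hif1a siRNA libraries the highest, with untreated cells between them. In reads these are small numbers, 14, 40 and 21 against 422, 349 and 394. The Hif1a siRNA exceeded the negative control by a log2 value of 3.69 ± 0.25 (edgeR adjusted p = 5.6e-12). Against untreated cells the same libraries were higher by 1.57 ± 0.21 (edgeR adjusted p = 4.8e-07), while the negative control siRNA was lower by -2.11 ± 0.26 (edgeR adjusted p = 2.7e-07). Leaving out each negative control library in turn moved the 3.69 to between 3.39 and 4.19. Doxorubicin libraries held 4.42, 3.95 and 5.94 CPM and combination libraries 4.45, 5.04 and 4.93, which overlap each other. The doxorubicin libraries also overlap untreated cells, while the combination libraries lie just above them. The combination against untreated cells gave 0.27 ± 0.22 on the log2 scale (95% interval -0.21 to 0.76, edgeR adjusted p = 0.25). With library totals alone that value was 0.52 and passed the threshold (edgeR adjusted p = 0.0318). Doxorubicin against untreated cells gave 0.26 ± 0.22 (log2; 95% interval -0.23 to 0.75, edgeR adjusted p = 0.27). After the Hif1a siRNA the drug lowered Steap1 by a log2 value of -1.30 ± 0.20 (edgeR adjusted p = 3.1e-06).

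Steap2 (gene ID 74051, chr5:5664829-5694649, minus strand), a reductase that acts on iron and copper and lies next to Steap1 on chromosome 5, was lowered by doxorubicin. It stood at 34.9, 34.1 and 33.7 CPM in untreated cells and at 15.2, 14.2 and 13.5 with the drug, a fall without overlap of -1.26 ± 0.10 on the log2 scale (edgeR adjusted p = 2.3e-11). The Hif1a siRNA libraries held 46.0, 50.9 and 47.4 CPM, above the 40.4, 36.5 and 35.0 of the negative control siRNA, a rise of 0.37 ± 0.09 (log2; edgeR adjusted p = 0.00098). With the combination the level was 12.7, 15.3 and 12.5 CPM, overlapping doxorubicin alone (log2 difference -0.08, 95% interval -0.30 to 0.15, edgeR adjusted p = 0.56). The fall with the drug was larger after the Hif1a siRNA, at -1.83 ± 0.10, and the effects differed by -0.57 (log2; edgeR adjusted p = 0.00099).

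Steap3, the main endosomal ferrireductase of red cell precursors (gene ID 68428, chr1:120226414-120271081, minus strand), went the other way. Untreated libraries held 20.7, 16.6 and 19.3 CPM and doxorubicin libraries 49.9, 41.3 and 49.4, a rise without overlap of 1.31 ± 0.11 on the log2 scale (edgeR adjusted p = 5.9e-11). After the Hif1a siRNA the rise was from 14.6, 16.1 and 16.5 CPM to 37.8, 38.7 and 40.8, again 1.31 ± 0.11 (edgeR adjusted p = 5e-11). The difference between these drug effects was 0.00 (log2; 95% interval -0.33 to 0.33, edgeR adjusted p = 1). Negative control siRNA libraries, at 25.5, 20.8 and 21.1 CPM, lay above all 3 Hif1a siRNA libraries, by a log2 difference of -0.51 ± 0.11 for the latter (edgeR adjusted p = 0.0002). The smaller Steap3 calls were lost when single libraries were left out and in some other settings. The combination against doxorubicin alone was -0.26 (edgeR adjusted p = 0.044) and lost its call without doxorubicin replicate 1 (-0.21) or 3 (-0.22) or combination replicate 1 (-0.24) or 2, without untreated replicate 3, and with library totals alone (-0.08, edgeR adjusted p = 0.525). That call was lost too with size factors of DESeq2 in edgeR (-0.21, edgeR adjusted p = 0.0958) or DESeq2 itself (-0.21, DESeq2 adjusted p = 0.0937). With only the compared groups it was -0.25 (edgeR adjusted p = 0.0739). The Hif1a siRNA against untreated cells was -0.26 (edgeR adjusted p = 0.036) and lost it without untreated replicate 1 (-0.19) or 3 (-0.24) or Hif1a siRNA replicate 1 (-0.21) or 2 (-0.28), and turned to 0.18 with library totals alone (edgeR adjusted p = 0.133). The negative control siRNA against untreated cells was 0.25 (edgeR adjusted p = 0.043) and lost it without untreated replicate 2 (0.17) or 3 (0.27) or negative control replicate 1 (0.15). This call was lost too with upper-quartile factors (0.20, edgeR adjusted p = 0.113) and with a filter of 1 CPM in 3 libraries (0.24, edgeR adjusted p = 0.0513).

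Ferritin heavy chain, Fth1 (gene ID 14319, chr19:9980600-9985111, plus strand), was lower in both siRNA groups and higher with doxorubicin. Untreated libraries held 3074, 2856 and 2771 CPM. The negative control siRNA libraries held 1370, 1367 and 1479 CPM, and the Hif1a siRNA libraries 1347, 1231 and 1266. Both siRNA groups lay far below untreated cells and side by side with each other without overlap. The negative control siRNA changed Fth1 by -1.04 ± 0.07 against untreated cells on the log2 scale (edgeR adjusted p = 9.9e-12), and the Hif1a siRNA against the negative control by -0.13 (95% interval -0.28 to 0.01, edgeR adjusted p = 0.08). This last value passed the threshold when Hif1a siRNA replicate 1 (-0.18) or combination replicate 2 (-0.14) was left out, with size factors of DESeq2 in edgeR (-0.18, edgeR adjusted p = 0.0198) or DESeq2 itself (-0.18, DESeq2 adjusted p = 0.0164), and with only the compared groups (-0.18, edgeR adjusted p = 0.000395). With library totals alone it was 0.08 (edgeR adjusted p = 0.17). Doxorubicin libraries held 5832, 5259 and 6130.4 CPM, all above every other library. That was a log2 rise of 0.98 ± 0.07 over untreated cells (edgeR adjusted p = 2e-12). In absolute log2 value 48.1% of all genes changed less with the drug. Combination libraries held 3211, 2921 and 3216 CPM, which is 1.28 ± 0.07 above the Hif1a siRNA (log2; edgeR adjusted p = 1.6e-14) and -0.88 ± 0.07 against doxorubicin alone (log2; edgeR adjusted p = 5.9e-10). The combination overlapped untreated cells (log2 difference 0.10, 95% interval -0.04 to 0.25, edgeR adjusted p = 0.15). That value passed the threshold with upper-quartile factors (0.19, edgeR adjusted p = 0.0208) and with library totals alone (0.35, edgeR adjusted p = 1.44e-06). The drug effect was larger after the Hif1a siRNA, by a log2 value of 0.30 ± 0.09 (edgeR adjusted p = 0.0094), a difference of 0.03 with library totals alone (edgeR adjusted p = 0.737).

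Ferritin light chain, Ftl1 (gene ID 14325, chr7:45457944-45459886, minus strand), did not follow the heavy chain with doxorubicin. Untreated libraries held 15692, 16410 and 15655 CPM and doxorubicin libraries 13084, 10869 and 12947, a fall without overlap of -0.37 ± 0.08 on the log2 scale (edgeR adjusted p = 0.00031). Combination libraries held 19956, 15748 and 15302 CPM, with replicate 1 standing high and the other 2 near untreated cells. They exceeded doxorubicin alone by a log2 value of 0.47 ± 0.08 (edgeR adjusted p = 0.00013), and by 0.34 without combination replicate 1 (edgeR adjusted p = 0.000854). Against untreated cells the combination gave 0.10 (95% interval -0.09 to 0.28, edgeR adjusted p = 0.29), which turned to -0.04 without that library (edgeR adjusted p = 0.646) and was 0.34 with library totals alone (edgeR adjusted p = 0.000135). On the TMM scale both siRNA groups were lower than untreated cells, at 10761, 10279 and 11156 CPM with the negative control siRNA and 12475, 11474 and 11838 with the Hif1a siRNA. For the Hif1a siRNA this rests on the scaling, -0.42 ± 0.08 on the log2 scale with TMM (edgeR adjusted p = 0.00012) and 0.03 with library totals alone (edgeR adjusted p = 0.746). As a plain share of reads Ftl1 took 1.36% to 1.46% with the Hif1a siRNA and 1.35% to 1.44% in untreated cells. The difference between the siRNA groups was 0.15 on the log2 scale (95% interval -0.03 to 0.34, edgeR adjusted p = 0.11). It passed the threshold without combination replicate 1, its value unmoved (edgeR adjusted p = 0.0392), with only the compared groups (0.10, edgeR adjusted p = 0.0232) and with library totals alone (0.36, edgeR adjusted p = 8.97e-05). The drug effect of -0.37 without siRNA and 0.51 ± 0.08 with it differed by 0.88 ± 0.12 (log2; edgeR adjusted p = 1.5e-06), and by 0.75 without combination replicate 1. Reads of Ftl1 may be shared with near-identical pseudogenes, and 3 pseudogene rows were listed. They held 4.53 to 4.99 reads per 100 Ftl1 reads in 13 of the 15 libraries, and 6.00 and 6.07 in combination replicates 1 and 2. Adding them to Ftl1 changed no call.

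The balance of the 2 ferritin messages separated doxorubicin from untreated libraries, while their sum overlapped. As a plain share of all counted reads, with no TMM factor, ferritin took 1.64% ± 0.04 in untreated cells and 1.65% ± 0.12 with doxorubicin, with overlapping ranges (SD, n = 3 each; two-sided exact permutation p = 0.9). In the same libraries there were 5.50 ± 0.35 Ftl1 reads per Fth1 read in untreated cells and 2.14 ± 0.09 with doxorubicin. These ranges do not overlap, and the two-sided exact permutation p of 0.1 is the smallest that 3 libraries against 3 allow. The ratio was 7.64 with the negative control siRNA, 9.31 with the Hif1a siRNA and 5.46 with the combination. It was thus highest with the Hif1a siRNA and lowest with doxorubicin alone. The ferritin share was 1.24% with the negative control siRNA, 1.56% with the Hif1a siRNA and 2.07% with the combination. Its ranges did not overlap between the negative control siRNA and untreated cells or the Hif1a siRNA. Nor did they between the combination and doxorubicin alone or the Hif1a siRNA (two-sided exact permutation p = 0.1 for each pair).

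**Figure D2:**
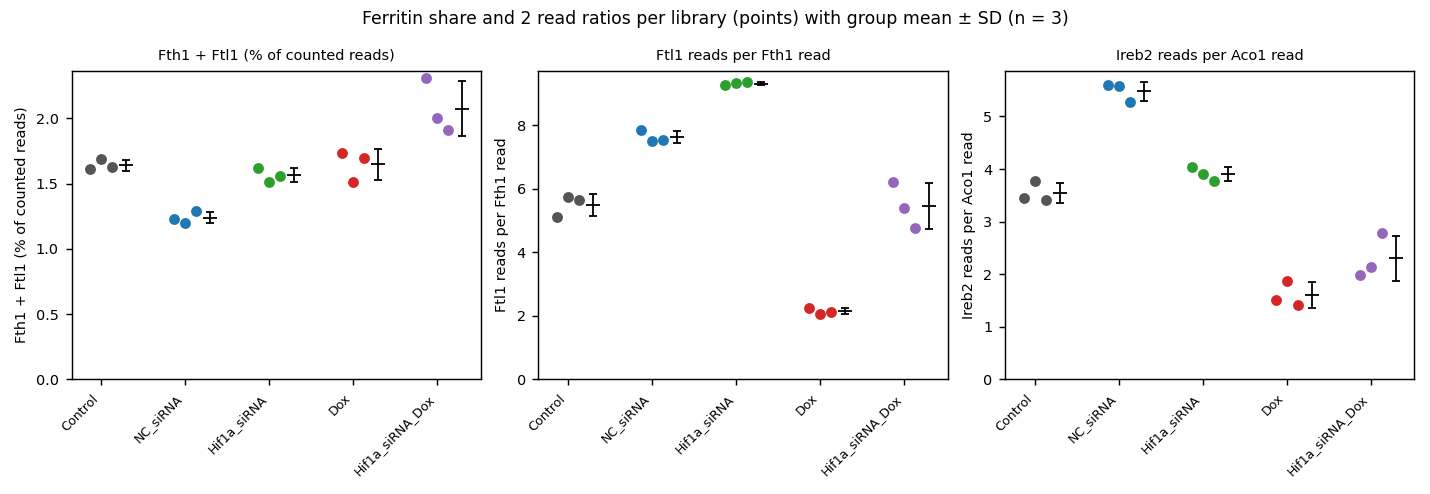
Ferritin reads as a percentage of all counted reads (left), Ftl1 reads per Fth1 read (middle) and Ireb2 reads per Aco1 read (right) in the 15 libraries; points are libraries and black marks are the group mean ± SD (n = 3). The ferritin share of untreated and doxorubicin libraries overlaps at 1.64% and 1.65% while their Ftl1 to Fth1 ratio differs, 5.50 against 2.14.

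Ncoa4, the receptor that delivers ferritin to the lysosome (gene ID 27057, chr14:32159879-32179855, plus strand), had the same order of group means as Fth1. Its libraries lay at 93.5 to 109 CPM in untreated cells (99.6 ± 8.39, SD, n = 3), 70.4 ± 0.88 with the negative control siRNA and 68.5 ± 2.77 with the Hif1a siRNA. Doxorubicin libraries held 150.1 to 183 CPM and combination libraries 128 to 143, without overlap between them or with the other groups. The drug raised Ncoa4 by a log2 value of 0.74 ± 0.08 without siRNA (edgeR adjusted p = 5.3e-09) and 0.97 ± 0.08 after the Hif1a siRNA (edgeR adjusted p = 4.2e-11). The difference of these effects was 0.23 (95% interval -0.01 to 0.48, edgeR adjusted p = 0.071), which passed the threshold without untreated replicate 2 (0.28) or doxorubicin replicate 3 (0.31), and with size factors of DESeq2 (0.31, edgeR adjusted p = 0.0169) or DESeq2 itself (0.31, DESeq2 adjusted p = 0.0115). With library totals alone it was -0.03 (edgeR adjusted p = 0.809). The negative control siRNA lowered it by -0.50 ± 0.08 against untreated cells (log2; edgeR adjusted p = 7e-06). The Hif1a siRNA against that control gave -0.04 (95% interval -0.21 to 0.13, edgeR adjusted p = 0.66), and with library totals alone 0.17 (edgeR adjusted p = 0.0419). The combination against doxorubicin alone gave -0.31 ± 0.08 (edgeR adjusted p = 0.0027), and the Hif1a siRNA against untreated cells -0.54 ± 0.08 (edgeR adjusted p = 1.5e-06). With library totals alone these were -0.13 (edgeR adjusted p = 0.141) and -0.10 (edgeR adjusted p = 0.224).

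Of the 2 iron regulatory proteins, Ireb2 fell with doxorubicin and Aco1 did not pass the test. Ireb2, which is removed by proteolysis when iron is plentiful (gene ID 64602, chr9:54862658-54912534, plus strand), stood at 87.04, 112 and 99.0 CPM in untreated cells and at 40.2, 43.8 and 42.9 with doxorubicin. The doxorubicin libraries were the lowest of the 15, a log2 change of -1.23 ± 0.09 (edgeR adjusted p = 8.7e-12). The Hif1a siRNA libraries, at 150.4, 140.9 and 145 CPM, were the highest, and the combination brought the gene to 55.0, 59.5 and 64.9. After the Hif1a siRNA the drug effect was -1.28 ± 0.09 (edgeR adjusted p = 2.7e-12), and the effects differed by -0.05 (95% interval -0.33 to 0.23, edgeR adjusted p = 0.76), or by -0.31 with library totals alone (edgeR adjusted p = 0.0493). The combination exceeded doxorubicin alone by 0.50 ± 0.09 without overlap (log2; edgeR adjusted p = 0.00013). Negative control siRNA libraries held 139, 121 and 118 CPM, 0.34 ± 0.09 above untreated cells (log2; edgeR adjusted p = 0.0016). The Hif1a siRNA exceeded them by 0.21 (edgeR adjusted p = 0.038), a call lost without negative control replicate 2 (0.17) or 3 (0.16) or without Hif1a siRNA replicate 1 (0.18), 2 (0.22) or 3 (0.20). The call was lost too with size factors of DESeq2 in edgeR (0.16, edgeR adjusted p = 0.102) or DESeq2 itself (0.16, DESeq2 adjusted p = 0.11).

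Aco1, which doubles as cytosolic aconitase when it holds an iron-sulfur cluster (gene ID 11428, chr4:40143265-40199009, plus strand), was highest with the Hif1a siRNA. Its group means were 28.0 ± 2.45 CPM in untreated cells, 23.0 ± 1.66 with the negative control siRNA, 37.2 ± 1.10 with the Hif1a siRNA, 26.7 ± 3.43 with doxorubicin and 26.3 ± 2.60 with the combination (SD, n = 3 each). Only the Hif1a siRNA libraries, from 36.1 to 38.3 CPM, stood apart from all others. They exceeded the negative control siRNA by a log2 value of 0.69 ± 0.10 (edgeR adjusted p = 2.6e-06). Doxorubicin against untreated cells gave -0.07 (95% interval -0.30 to 0.17, edgeR adjusted p = 0.55), and after the Hif1a siRNA -0.50 ± 0.10 (edgeR adjusted p = 9.5e-05). These effects differed by -0.43 ± 0.15 (edgeR adjusted p = 0.014), a call lost without doxorubicin replicate 3 (-0.33, edgeR adjusted p = 0.0565). It was lost too with size factors of DESeq2 in edgeR (-0.35, edgeR adjusted p = 0.0518). The negative control siRNA against untreated cells was -0.28 (edgeR adjusted p = 0.021), lost without untreated replicate 2 (-0.24) or 3 (-0.26) or negative control replicate 2 (-0.24) or 3 (-0.27), and with library totals alone (-0.06, edgeR adjusted p = 0.652). Reads of Ireb2 per read of Aco1 were 3.55 in untreated cells and 1.60 with doxorubicin, without overlap (two-sided exact permutation p = 0.1, the smallest possible for 3 against 3), and stood at 5.48, 3.91 and 2.302 with the negative control siRNA, the Hif1a siRNA and the combination.

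Counted by comparison, the iron genes are set beside the share of all genes that passed the same test. The Hif1a siRNA against the negative control siRNA called 7 of the 10 (Tfrc and Steap3 lower and 5 higher), where 67.7% of all genes were called (36.4% higher and 31.2% lower). Doxorubicin against untreated cells called 8 of 10, with Fth1, Steap3 and Ncoa4 higher and 5 lower. There 83.8% of all genes were called (43.9% higher and 39.8% lower). By absolute log2 fold change the called member that moved most, Steap3, exceeded 59.9% of all genes. The called member that moved least, Slc11a2, exceeded 17.5%. Doxorubicin after the Hif1a siRNA called all 10, 5 in each direction, at a background of 84.2% (42.6% higher and 41.6% lower). The combination against doxorubicin alone called 5, Ftl1 and Ireb2 higher and Fth1, Steap3 and Ncoa4 lower, at a background of 42.2% (21.5% higher and 20.8% lower). The negative control siRNA against untreated cells called 9, with 3 higher and 6 lower, at 66.8% (33.1% and 33.7%). Against those untreated cells the Hif1a siRNA called 10, 5 each way, at 74.4% (40.2% and 34.2%), and the combination called 6, 2 higher and 4 lower, at 84.7% (43.4% and 41.2%). These backgrounds are high, and a count over 10 genes near them says nothing about the set beyond its single genes; the widest gaps were 10 of 10 at 74.4%, 9 of 10 at 66.8% and 6 of 10 at 84.7%. With library totals alone the split of calls over all genes moved from 53.9% higher to 68.2% for the Hif1a siRNA against the negative control, from 50.9% to 76.8% for the combination against doxorubicin, from 49.5% to 67.0% for the negative control siRNA and from 54.0% to 76.6% for the Hif1a siRNA against untreated cells. The members called in those comparisons were then 7 higher and 2 lower, 4 and 1, 4 and 4, and 5 and 2, and for the combination against untreated cells 5 and 2. The median log2 fold change of the 10 was 0.18 for the Hif1a siRNA against the negative control and -0.20 for doxorubicin, beside 0.06 and 0.10 for all genes. Without regard to sign the medians were 0.33 and 0.56, beside 0.50 and 1.04, so the set moved less than the typical gene. Only for doxorubicin after the Hif1a siRNA was that median above all genes (1.14 beside 1.01). With doxorubicin 3 of the 10 were called at 2-fold or more, beside 51.3% of all genes. The comparisons with untreated cells share those 3 libraries, as those with any other common group share theirs.

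Library ranges that do not overlap between groups tell much the same. With the Hif1a siRNA against the negative control 9 of the 10 genes were separated, Ncoa4 being the exception, where 77.3% of all genes were. Doxorubicin separated 8 from untreated cells (all genes 84.9%), Steap1 and Aco1 overlapping, and all 10 after the Hif1a siRNA (85.2%). The combination was separated from doxorubicin alone for 5 (45.6%), namely Fth1, Ftl1, Steap3, Ireb2 and Ncoa4. Against untreated cells the negative control siRNA separated 9 (72.7%, Tfrc overlapping), the Hif1a siRNA 10 (80.1%) and the combination 7 (82.5%, Fth1, Ftl1 and Aco1 overlapping).

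**Figure D3:**
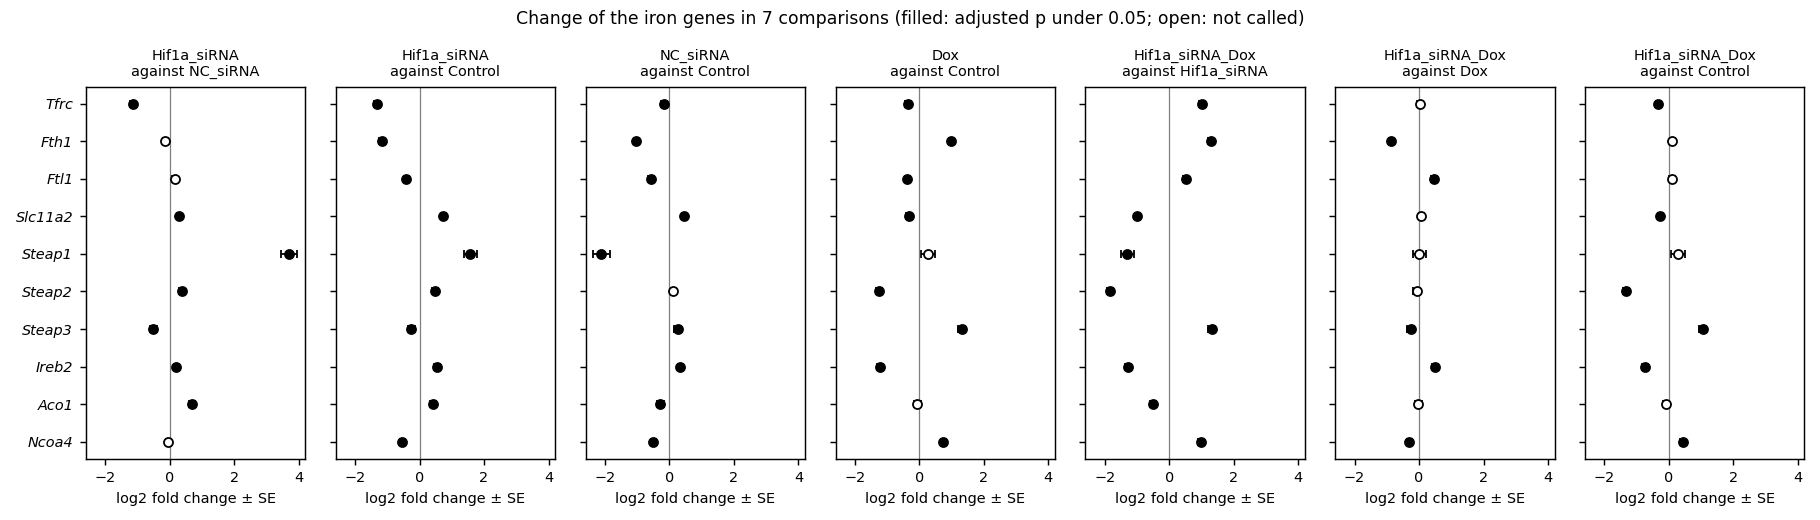
Log2 fold change ± SE (horizontal axes) of the 10 iron genes in 7 comparisons of the 5 groups, from edgeR; filled points have an adjusted p under 0.05 and open points do not. Steap1 has the largest value, 3.69 with the Hif1a siRNA against the negative control siRNA, and Fth1 and Ftl1 lie on opposite sides of 0 with doxorubicin, at 0.98 and -0.37.

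Whether doxorubicin acted differently after the Hif1a siRNA was tested for each gene as the difference between its 2 drug effects, and 7 of the 10 differed, 3 upwards and 4 downwards, at a background of 58.6% (26.3% and 32.3%). With library totals alone it was 2 upwards and 5 downwards, and the share of all called genes that went upwards moved from 44.9% to 26.6%. Tfrc and Ftl1, called lower with the drug alone, were called higher with it after the siRNA. Fth1 rose in both settings, and more after the siRNA except with library totals alone. Slc11a2 and Steap2 fell in both and more after the siRNA, and Steap1 and Aco1 were called lower only in the comparison made after the siRNA. For Steap3, Ireb2 and Ncoa4 the difference did not pass the test on the TMM scale. The starting level also differed: the drug effect after the siRNA is measured from lipoplex-treated cells, in which Fth1 stood at 1281 rather than 2900.1 CPM, Steap1 at 11.8 rather than 3.98 and Tfrc at 412 rather than 1037. The share of the lipoplex in these differences cannot be told apart from that of the Hif1a siRNA.

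**Figure D4:**
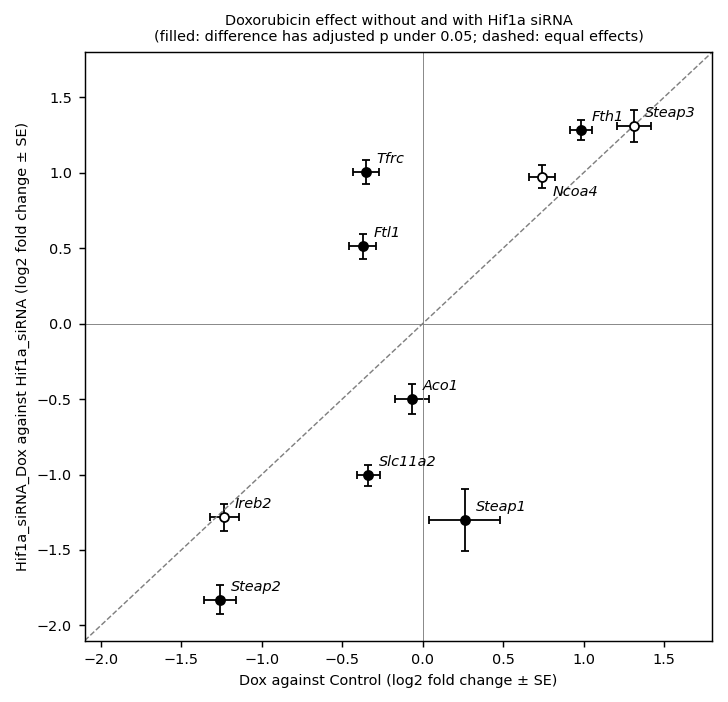
Log2 fold change ± SE with doxorubicin in cells without siRNA (horizontal axis) and after the Hif1a siRNA (vertical axis) for the 10 iron genes; the dashed line marks equal effects and filled points are those whose difference has an edgeR adjusted p under 0.05. Tfrc and Ftl1 lie left of 0 on the horizontal axis (-0.35 and -0.37) and above 0 on the vertical one (1.00 and 0.51), while Steap3 lies on the line.

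The other genes that handle iron were counted from 7 lists, for the Hif1a siRNA against the negative control and for doxorubicin against untreated cells. For the siRNA 67.7% of all genes were called (36.4% higher and 31.2% lower), and for doxorubicin 83.8% (43.9% and 39.8%). Counts are on the TMM scale, and those with library totals alone are given where they differ for the siRNA. With totals alone 68.2% of the siRNA calls over all genes were higher, in place of 53.9%. All 6 genes of transferrin receptor traffic fell with doxorubicin (median log2 fold change -1.58, beside 0.10 for all genes). Rab11a, a GTPase of recycling endosomes, went from 147 ± 4.98 to 28.6 ± 1.87 CPM, Exoc6 of the exocyst from 25.3 ± 0.81 to 5.56 ± 0.64 and the retromer subunit Vps35 from 435 ± 10.2 to 138 ± 3.23 (SD, n = 3 each). With the Hif1a siRNA 2 of these 6 rose and 1 fell (4 and 0 with totals alone). Of the other import and ferrireductase genes 5 of 12 were listed, and 3 rose and 1 fell with the drug. Transferrin itself (Trf), the carrier that Tfrc binds, rose from 132 ± 2.81 to 495 ± 53.4 CPM with doxorubicin (log2 1.91 ± 0.07, edgeR adjusted p = 3.6e-17), and fell with the Hif1a siRNA (log2 -0.71 ± 0.07, edgeR adjusted p = 7.3e-09). The zinc and iron importer Slc39a14 rose with the Hif1a siRNA (log2 1.17) and fell with doxorubicin (-1.58).

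Iron export and heme handling fell with the Hif1a siRNA in 7 of 8 genes and rose in 1, or 6 and 1 with totals alone (median log2 fold change -0.67, beside 0.06 for all genes), and with doxorubicin 2 rose and 4 fell. Hmox1, which frees iron from heme, was at 683 ± 20.1 CPM with the negative control siRNA and 162 ± 3.78 with the Hif1a siRNA (log2 -2.08 ± 0.08, edgeR adjusted p = 2.9e-16). With doxorubicin it went from 772 ± 27.4 to 36.7 ± 1.42 CPM (log2 -4.40 ± 0.09, edgeR adjusted p = 1.2e-21). Ceruloplasmin (Cp), a ferroxidase that aids export, fell with the Hif1a siRNA by -1.73 ± 0.10 (log2; edgeR adjusted p = 7.5e-13). Of the 7 regulators and chaperones tested 1 rose and 2 fell with the Hif1a siRNA (3 and 1 with totals alone), and 1 rose and 4 fell with the drug. Pcbp1, the chaperone that loads iron into ferritin, fell from 983 ± 27.8 to 109.6 ± 3.33 CPM with doxorubicin, and Fbxl5, which marks Ireb2 for degradation, from 59.4 ± 4.37 to 14.3 ± 0.32 (SD, n = 3 each). Doxorubicin came with more Fth1 message and less Pcbp1 message, while ferritin protein and its iron loading were not measured.

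Iron-using pathways split by gene. Heme synthesis rose with doxorubicin in 7 of 11 genes and fell in 1, where 43.9% of all genes rose and 39.8% fell. Its median log2 fold change was 0.74, beside 0.10 for all genes. Alas1, the first and rate-limiting enzyme, rose most, from 37.2 ± 5.15 to 416 ± 25.8 CPM. With the Hif1a siRNA 3 of the 11 rose and 4 fell (6 and 2 with totals alone). Mitochondrial iron-sulfur cluster assembly had 11 of 19 genes higher and 4 lower with the Hif1a siRNA (14 and 2 with totals alone), and 7 higher and 11 lower with doxorubicin. Its ferredoxin reductase Fdxr, a known p53 target, went from 10.4 ± 1.29 to 166 ± 10.7 CPM with the drug, while the chaperone Hspa9 went from 2442 ± 101 to 292 ± 19.1 (SD, n = 3 each). Of 11 cytosolic assembly genes 7 rose and 2 fell with the Hif1a siRNA (8 and 1 with totals alone), and 7 rose and 3 fell with doxorubicin.

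Genes whose group means followed those of the 3 most variable members were sought among 9882 named genes whose mean over all libraries was at least 5 CPM, by the root mean square difference of centred log2 levels over the 5 groups. Steap1 was followed at some distance, by Brip1 (0.31), Rad54l (0.38) and Pla2g4a (0.42). Brip1, a DNA helicase, stood at 9.68 CPM in untreated cells, 4.23 with the negative control siRNA, 36.2 with the Hif1a siRNA, 13.7 with doxorubicin and 15.8 with the combination. Nearest to Fth1 were Rpl41 (0.13), Rps29 (0.15) and Cfap410 (0.15), and nearest to Steap2 were Dmtf1, Ccser2 and Vmp1, all at 0.07 to 0.08. The measure rests on 5 group means from shared libraries and is a description.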

How the data were processed

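RNA of B16.F10 cells was sequenced in 15 libraries (TruSeq Stranded mRNA, per the labels' protocols). The authors deposited raw read counts per gene. The submitters' processing notes name the mm10 build, the aligners Bowtie2 2.3.4.1 and HISAT2 2.1.0, StringTie 2.1.3b, and for read quality Trimmomatic 0.38 and FastQC 0.11.7; the counting tool and its strand setting are not given in the sources used here, so overlapping antisense reads cannot be told apart. Blank symbols were filled from RefSeq by gene ID (1491 of 1520). Genes listed in all 5 groups' tables (12721; 451 others left out) were fitted in edgeR 4.0.16 on all 15 libraries (TMM, robust quasi-likelihood, group only), tested two-sided with Benjamini-Hochberg adjustment over all genes at 0.05, and tested on simulated data first; the low-count filter removed 0 genes. The simulation changed only a small part of the genes, in both directions, so it did not test the scaling under changes as broad as these. Intervals use 10 residual degrees of freedom, without those that the edgeR test gains from all genes. They are therefore somewhat wider than that test implies. Transcript length is the longest principal transcript of GENCODE M21. Every member was named; from each list of other iron genes, up to 3 called genes of largest change. Members and lists were chosen with earlier results of these data known. Promoters come from RefSeq; no entry matched Slc11a2. Alternatives were other scaling factors, DESeq2 1.42.0, a threshold of 0.01, other low-count filters, only the compared groups, a replicate block, ferritin pseudogenes summed, each library left out and, chosen after seeing the data, library totals without TMM. Replicates of 1 group differed by more than sampling noise. Chi-square per degree of freedom was 24.5 to 33.7 in the combination and 3.53 to 16.2 in the other groups. The fit used 1 estimate of the spread per gene for all groups. Its SE therefore does not show that the combination libraries varied more.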

Additional observations from a re-analysis of the deposited data

Results flagged for a closer look

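A test of the difference itself separated the doxorubicin effect in cells with the Hif1a siRNA from that in cells without it for 7 of the 10 iron genes (edgeR adjusted p under 0.05), beside 58.6% of all genes. On the log2 scale, with the siRNA minus without it, the differences were 1.36 for Tfrc, 0.88 for Ftl1 and 0.30 for Fth1, and -0.43 for Aco1, -0.57 for Steap2, -0.67 for Slc11a2 and -1.56 for Steap1. Fth1 read 0.98 without the siRNA and 1.28 with it, and its difference was 0.03 with library totals in place of TMM factors (edgeR adjusted p = 0.737). Tfrc and Ftl1 are the genes called in opposite directions in the 2 settings. Groups of 3 libraries were too small for a search for single outlying libraries.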

How the results depend on the processing

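The 10 genes in 8 tests gave 80 values, 62 of them called. Each value was refitted under 23 planned settings, and those of Ftl1 under 24, since the summed pseudogenes bear on that gene alone. In these 55 calls held throughout, 7 were lost in some and 0 changed direction. The 7 are Ireb2 with the Hif1a siRNA against the negative control, Steap3 in 3 comparisons, Tfrc and Aco1 with the negative control siRNA against untreated cells, and the Aco1 difference of drug effects. Some settings could move little. The fit with no low-count filter repeats the main one, since that filter removed 0 genes. Leaving out a library outside the compared groups bears mainly on the estimate of the spread. Among 18 values that were not called 4 passed in some setting and 7 changed sign. Those sign changes on the log2 scale were, with upper-quartile factors, Aco1 with doxorubicin (0.0596), Tfrc (-0.0148) and Steap1 (-0.0299) with the combination against doxorubicin, and the Steap3 difference of drug effects (0.0235). With DESeq2 or its size factors they were Aco1 with the combination against doxorubicin (0.0281 under both) and the differences of drug effects of Steap3 (0.0784 and 0.0783) and Ireb2 (0.030 under both), and with a filter of 1 CPM in 3 libraries the Steap3 difference (0.0072). Without 1 replicate at a time, Aco1 with doxorubicin ran from -0.165 to 0.0207; for the combination against doxorubicin Tfrc ran from -0.020 to 0.0646, Steap1 from -0.109 to 0.200 and Aco1 from -0.109 to 0.0766; Ftl1 with the combination against untreated cells from -0.0361 to 0.165; and the differences of drug effects of Steap3 from -0.084 to 0.0842 and of Ireb2 from -0.145 to 0.0383. Library totals alone in place of TMM, added after seeing the data, lost 7 of the 62 calls and turned the sign of 3 others: Tfrc with the negative control siRNA against untreated cells (0.0484), and Ftl1 (0.0251) and Steap3 (0.183) with the Hif1a siRNA against untreated cells. Among values not called it turned Fth1 (0.0787) and Ncoa4 (0.171) with the Hif1a siRNA against the negative control, Steap2 (0.0982) and Aco1 (0.158) with the combination against doxorubicin, Aco1 with it against untreated cells (0.157) and the Ncoa4 difference of drug effects (-0.0318); 8 further values then passed the threshold in their own direction. These shifts follow from that setting's construction, since 1 factor per library moves all genes; for the other settings the cause was not tested. Under the planned settings counts of called members stayed within 6 to 9 for the Hif1a siRNA, at 8 for doxorubicin, 4 to 5 for the combination against doxorubicin, 6 to 9 for the negative control siRNA and 6 to 8 for the difference. Upper-quartile factors moved the median of all genes by 0.13 for doxorubicin and 0.15 for doxorubicin after the Hif1a siRNA. Libraries with the same number did not deviate together (r -0.16 to 0.09 over 30 pairs, 4 of 15 libraries closest to their own number). With 3 libraries per group this cannot tell whether those of the same number were prepared together, which the labels do not state. A replicate block gave 8 called members for the Hif1a siRNA in place of 7, the addition being Fth1 (-0.13, edgeR adjusted p = 0.0419), and 8 for doxorubicin.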
